A study of Mus musculus with 8 samples.

Results

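Accessible chromatin far from genes was examined in LSK cells, the lineage-negative, Sca-1-positive, c-Kit-positive fraction of mouse bone marrow that holds the haematopoietic stem cells and the earliest progenitors. A distal region was defined as an Omni-ATAC-seq peak called by MACS2 whose annotation in the study's files was intergenic and which lay more than 50 kb from the nearest transcription start site (TSS). Overlapping distal peaks of the 4 libraries were merged, which gave 9287 distal regions among 60531 merged peak regions of any annotation. The nearer intergenic regions, 50 kb or less from a TSS, numbered 12783. The median distal region lay 119 kb from its TSS and the farthest 2051 kb, and 51.9% lay upstream of the assigned gene. The threshold separated neighbours by little, since the nearest peak outside it lay at 49996 bp and the nearest inside it at 50003 bp.

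The study compared LSK cells of C57BL/6 mice that lack exon 16 of Dido1 in blood cells with those of control littermates, with 2 libraries for each genotype. Dido1 encodes Dido3, a chromatin reader whose C terminus is lost when exon 16 is deleted. The mutant mice were Dido1 flE16/∆E16;R26R-EYFP;iCreVav1 and are called Dido1∆E16. The controls were Dido1 flE16/+;R26R-EYFP;iCreVav1 and are called WT, so that they also carried a floxed allele, the EYFP reporter and the Cre recombinase that the Vav1 promoter drives in haematopoietic cells. The paper also describes the littermate controls as heterozygous, so WT cells need not have carried an intact exon 16 on both alleles. By the methods the mice were 6 to 10 weeks old and matched for age and sex, but the ATAC-seq tracks are elsewhere said to come from males that differed in age, so that the age match of these libraries is uncertain. The labels do not say how many animals entered a library, and the p-values below therefore measure only the spread between libraries.

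Distal regions of this kind are where enhancers usually lie. An enhancer binds sequence-specific factors, becomes free of nucleosomes and acts on a promoter that can be far away, so that the gene with the nearest TSS need not be its target. In stem and progenitor cells such elements are known to be bound by PU.1 and other ETS factors, RUNX1, GATA2 and E proteins. ATAC-seq reads open DNA wherever it lies, and reads from repeated sequence can be placed at any of several copies.

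The 4 libraries differed in depth. WT replicate 1 held 10249256 tags and replicate 2 held 52050898, and the Dido1∆E16 libraries held 22533077 and 44633938. Promoter peaks of Kit, Cd34, Flt3 and Meis1, markers of LSK cells, were present in all 4 libraries. Ly6a, which encodes Sca-1, had no promoter peak in any of them. None of 5 T cell markers had one, and of 5 markers each for B cells, for neutrophils and monocytes and for erythroid cells at most 1 had a promoter peak in any library.

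The sequences of some distal regions are given first, since they show the kinds of DNA that were called. They are from the GRCm38 genome, which is mm10, the build of the peak files, on the plus strand. The first 3 are regions with a MACS2 peak in both WT libraries and none in either Dido1∆E16 library. Here and below, peaks said to be present or absent are MACS2 peaks unless HOMER is named. The first 3 had the highest lower WT score among 27 regions. The 27 were drawn from 1782 regions with a peak in both WT libraries and none in either Dido1∆E16 library. Each of the 27 was required to have a HOMER peak in at least 1 library of either genotype. Each was also required to hold both a PU.1/ETS motif (GAGGAAGT) and a RUNX motif (TGTGGTT) in the central 200 bp. Capitals mark these motifs on either strand. The regions were assigned to Wdr11, Cd180 and Tmprss15, which lay 134, 120 and 787 kb away. Cd180 encodes a Toll-like receptor homologue of B cells.
Wdr11, chr7:129759985-129760104: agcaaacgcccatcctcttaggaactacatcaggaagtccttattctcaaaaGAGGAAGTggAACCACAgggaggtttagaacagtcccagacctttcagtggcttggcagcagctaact
Cd180, chr13:102573303-102573422: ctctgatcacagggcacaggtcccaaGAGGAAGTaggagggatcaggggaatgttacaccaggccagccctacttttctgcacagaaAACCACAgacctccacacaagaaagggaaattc
Tmprss15, chr16:79878149-79878268: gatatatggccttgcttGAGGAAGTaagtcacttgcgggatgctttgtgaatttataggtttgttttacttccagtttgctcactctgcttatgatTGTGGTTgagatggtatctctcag

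The next 3 hold the same motif pair and had a peak in all 4 libraries. They scored highest among 7 of that kind, each also required to have a HOMER peak in any library. The 7 were drawn from 414 regions with a peak in all 4 libraries. The parent sets differ in size, so the counts of regions with the pair cannot be compared directly. Whether the pair goes with the absence of a Dido1∆E16 peak was not tested. The next 3 regions were assigned to Bmper, Aebp2 and Spsb1. In the Aebp2 region the RUNX match lies outside the bases shown.
Bmper, chr9:23570332-23570451: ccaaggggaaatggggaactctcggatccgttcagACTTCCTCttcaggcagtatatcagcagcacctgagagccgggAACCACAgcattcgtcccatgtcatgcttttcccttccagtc
Aebp2, chr6:140816983-140817102: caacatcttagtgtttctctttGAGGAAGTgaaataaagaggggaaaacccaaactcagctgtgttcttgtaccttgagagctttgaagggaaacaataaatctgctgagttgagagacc
Spsb1, chr4:149856499-149856618: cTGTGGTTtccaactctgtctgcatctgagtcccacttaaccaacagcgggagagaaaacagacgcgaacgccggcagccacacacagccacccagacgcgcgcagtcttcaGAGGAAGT

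A region 52.6 kb upstream of Lef1, a transcription factor of lymphoid progenitors, had scores of 69 and 152 in WT and no MACS2 peak in Dido1∆E16. Its lower WT score would place it among the 5 strongest regions without a Dido1∆E16 peak by either caller, named below. The region is not among them, so HOMER called a peak there in at least 1 Dido1∆E16 library. Repeat-masked sequence makes up 69.3% of it. Capitals mark its PU.1/ETS motif and a MEIS motif (TGACAG).
Lef1, chr3:131057392-131057511: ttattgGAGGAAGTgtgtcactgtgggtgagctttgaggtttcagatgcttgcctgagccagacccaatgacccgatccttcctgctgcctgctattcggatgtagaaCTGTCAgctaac

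The last 2 regions shown hold sequence that recurs. The region with the highest score in all 4 libraries lay on chromosome 12, where 365 bases matched the mitochondrial genome of the same assembly at 99.7% identity. It is shown without capitals. A region on chromosome 4 had a peak in both Dido1∆E16 libraries and none in WT, and it repeats a short unit in tandem. Capitals in it mark a match to the E-box CAGGTG.
1700019M22Rik, chr12:97061550-97061669: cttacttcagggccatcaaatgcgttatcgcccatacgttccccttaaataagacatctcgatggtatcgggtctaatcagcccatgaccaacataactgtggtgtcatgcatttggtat
4930448K20Rik, chr4:10137386-10137505: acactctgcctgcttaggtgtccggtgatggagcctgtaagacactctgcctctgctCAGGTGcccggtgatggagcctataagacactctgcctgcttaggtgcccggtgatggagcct

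The number of distal peaks was lower in the Dido1∆E16 libraries, while their share of all peaks overlapped between the genotypes. WT replicates 1 and 2 held 3138 and 8363 distal peaks and Dido1∆E16 replicates 1 and 2 held 978 and 1992. These were 11.5% and 14.5% of all peaks of the WT libraries and 7.40% and 12.2% of those of the Dido1∆E16 libraries. The WT libraries averaged 13.0% ± 2.13 (SD, n = 2), the Dido1∆E16 libraries averaged 9.80% ± 3.39 (SD, n = 2), a difference of -3.18 percentage points (exact two-sided permutation test, p = 0.667). With 2 libraries against 2 the smallest p that this test allows is 0.333. Within each genotype the library with more tags held more distal peaks, and WT replicate 1, with the fewest tags of the 4, held more than either Dido1∆E16 library. The part of depth in these counts was not tested.

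Of the 9287 merged regions, WT replicates 1 and 2 held 33.5% and 90.02% and the Dido1∆E16 replicates 10.4% and 21.3%. The genotypes did not overlap, and the means differed by -45.9 points (exact two-sided permutation test, p = 0.333, the smallest possible). Peaks of all annotations separated in the same way, with 27352 and 57739 in WT and 13208 and 16329 in Dido1∆E16. The separation was therefore not particular to distal regions. When each library was limited to its 13208 best-scoring peaks, the distal share was 9.88% and 9.90% in WT and 7.40% and 11.2% in Dido1∆E16, a share in which the genotypes overlapped. Of the fewer distal regions that these limited lists gave when merged anew, the WT libraries held 45.5% and 45.7% and the Dido1∆E16 libraries 34.0% and 51.5%. At equal numbers of peaks neither measure separated the genotypes.

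Distal peaks scored below promoter peaks in every library and were close to nearer intergenic peaks in width and score. Their median width was 322 and 366 bp in WT and 296.5 and 316.5 bp in Dido1∆E16, a difference of -37.5 bp without overlap (exact two-sided permutation test, p = 0.333). Without chromosomes 1, 10, 11 and 12 the widths overlapped, at 320 and 376 bp against 309 and 322 bp (exact p = 0.667), and without WT replicate 2 the difference was -15.5 bp. The median MACS2 score, which rises with the evidence for a peak, was 32 and 42 in WT and 30 and 25 in Dido1∆E16. The median scores of promoter peaks were 48 and 89 in WT and 50 and 37 in Dido1∆E16. Nearer intergenic peaks had median widths of 320 and 360 bp in WT and 319 and 320 bp in Dido1∆E16, with median scores of 31 and 44 and of 34 and 25.

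Distal peaks were spread unevenly over the chromosomes, and the unevenness differed between libraries and between peak callers. Chromosomes 1, 10, 11 and 12, which come first when the names are sorted as text, held 23.7% and 29.0% of the distal MACS2 peaks of the WT libraries and 42.4% and 47.3% of those of the Dido1∆E16 libraries. The density there was 1.18 and 1.55 times that on the other 17 chromosomes in WT and 2.80 and 3.41 times in Dido1∆E16. The 4 chromosomes were picked after the counts had been seen. The distal peaks that the authors called with HOMER on the same libraries did not show this, with 22.8% and 23.6% in WT and 23.7% and 21.2% in Dido1∆E16 on these chromosomes. The plot of peak density by chromosome shows both callers.

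**Figure D1:**
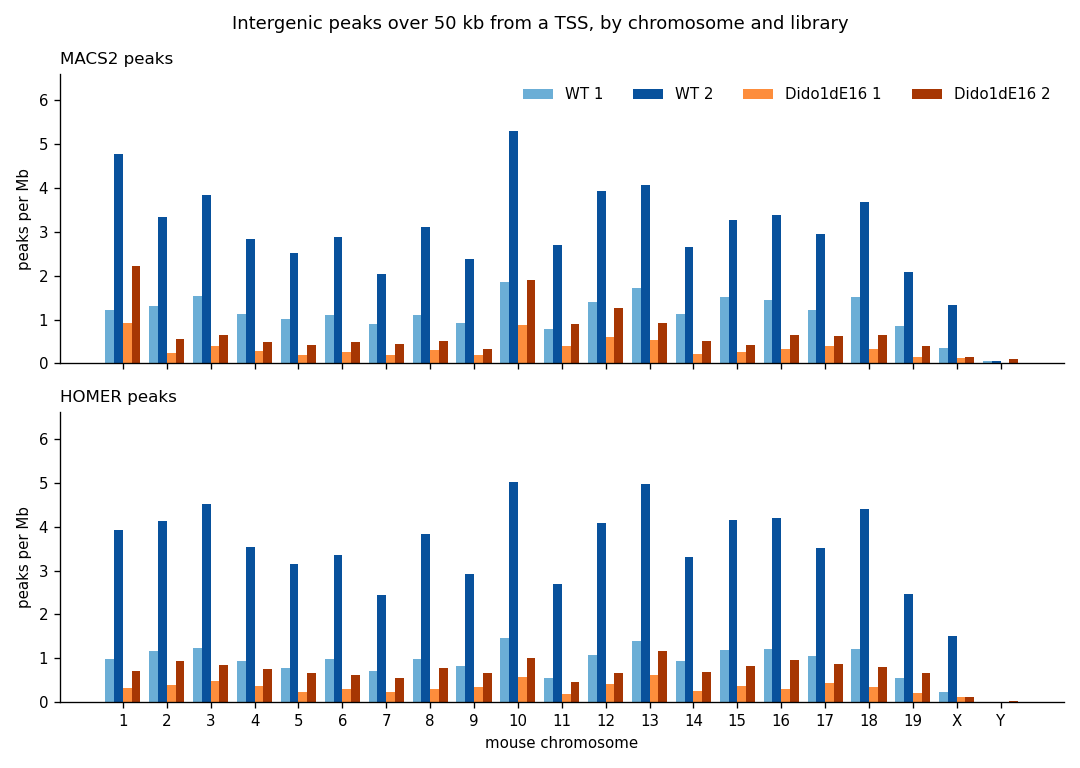
Intergenic peaks more than 50 kb from a TSS per Mb of each mouse chromosome, called by MACS2 (top) and by HOMER (bottom), with a bar for each of the 4 LSK libraries. In the Dido1∆E16 libraries the MACS2 bars of chromosome 1 (0.921 and 2.22 peaks per Mb) exceed those of chromosome 2 (0.242 and 0.549), while the HOMER bars of chromosome 1 are 0.327 and 0.701 and those of chromosome 2 are 0.401 and 0.934.

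Many of the distal peaks on these chromosomes were called by MACS2 alone. On the other 17 chromosomes, 71.7% and 88.2% of the distal MACS2 peaks of the WT libraries and 67.3% and 66.1% of those of the Dido1∆E16 libraries overlapped a HOMER peak of the same library. On chromosomes 1, 10, 11 and 12 the shares were 68.1% and 65.5% in WT and 29.2% and 20.9% in Dido1∆E16. Within the other 17 chromosomes, distal peaks made up 11.3% and 13.5% of the peaks of the WT libraries and 5.66% and 8.90% of the peaks of the Dido1∆E16 libraries, a difference of -5.13 points (exact two-sided permutation test, p = 0.333). Within chromosomes 1, 10, 11 and 12 the shares were 12.1% and 17.5% in WT and 12.7% and 20.7% in Dido1∆E16, and the genotypes overlapped.

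Repeat content went along with this division. A region was called mostly repeat when over 50% of its bases are repeat-masked in the reference, and a near-copy when 150 or more of its bases align with another distal region at 90% identity or more. Of the 1408 regions on chromosomes 1, 10, 11 and 12 without a HOMER peak in any library, 89.8% were mostly repeat and 87.9% were near-copies. Of the 1616 regions there with a HOMER peak, 3.22% were mostly repeat and 1.36% were near-copies. On the other 17 chromosomes, 42.7% of the 900 regions without a HOMER peak and 3.58% of the 5363 with one were mostly repeat. A single region had up to 824 near-copies among the distal regions.

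By library, 6.88% and 14.5% of the distal peaks of the WT replicates and 37.4% and 47.5% of those of the Dido1∆E16 replicates were mostly repeat. In the nearer intergenic peaks the values were 5.06% and 7.54% in WT and 14.0% and 19.2% in Dido1∆E16. The 2 genotypes did not overlap in either class. Over all peaks that were not distal the values were 2.11% and 4.18% in WT and 3.925% and 7.14% in Dido1∆E16, and there the genotypes overlapped. When the mostly repeat peaks of any annotation were left out, the distal share was 10.98% and 13.1% in WT and 4.95% and 7.28% in Dido1∆E16, a difference of -5.94 points (exact two-sided permutation test, p = 0.333). Among MACS2 peaks that overlap a HOMER peak of the same library the distal share was 10.2% and 13.1% in WT and 4.43% and 6.82% in Dido1∆E16. Nearer intergenic peaks separated without any such choice, at 17.7% and 20.9% of all peaks in WT and 11.5% and 13.6% in Dido1∆E16. That difference was -6.74 points (exact two-sided permutation test, p = 0.333). A lower share in Dido1∆E16 was therefore not particular to distal peaks. The part that mapping to repeats has in the MACS2 excess was not tested.

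**Figure D2:**
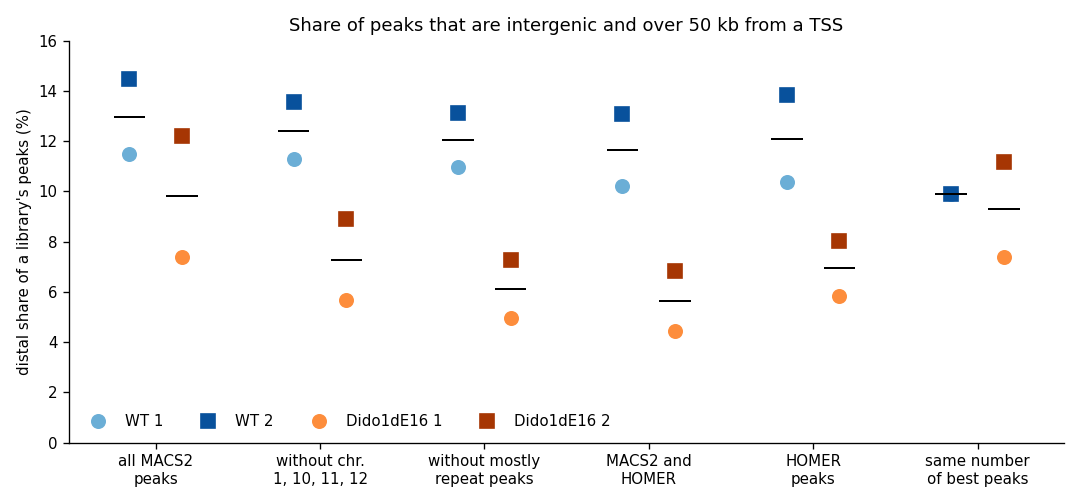
Percent of the peaks of each LSK library that are intergenic and more than 50 kb from a TSS, under 6 ways of choosing the peaks, with a point for each library and a line at the mean of the genotype. The genotypes overlap for all MACS2 peaks (7.40% and 12.2% against 11.5% and 14.5%) and at the same number of best-scoring peaks, and they separate in the other 4 settings.

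**Figure D3:**
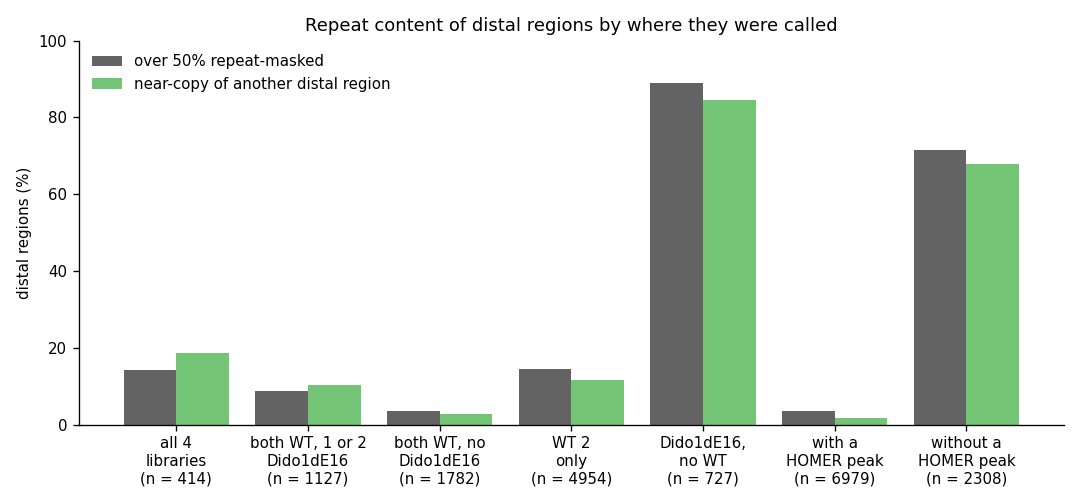
Percent of distal regions that are over 50% repeat-masked (grey) or have a near-copy among the other distal regions (green), by the libraries in which they were called and by HOMER support in any library. Regions with a peak in a Dido1∆E16 library and none in WT stand at 88.9% and 84.5%, and those with both WT libraries and no Dido1∆E16 peak at 3.59% and 2.86%.

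Most distal regions were seen once. Of the 9287 regions, 5813 (62.6%) had a distal peak in 1 library, 2232 in 2, 828 in 3 and 414 (4.46%) in all 4. WT replicate 2 alone accounted for 4954 regions. The median width rose from 293 bp for regions of 1 library to 788 bp for regions of all 4. HOMER called a peak in at least 1 library in 79.8% of the regions of WT replicate 2 alone, in 3.92% of the 561 of Dido1∆E16 replicate 2 alone and in 5.60% of the 125 of Dido1∆E16 replicate 1 alone.

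In the 414 regions of all 4 libraries the median score was 61 and 147 in WT and 41.5 and 48.5 in Dido1∆E16. The highest scores belonged mostly to sequence with other copies. Among the 20 regions with the highest lowest score, 10 were mostly repeat and 5 matched the mitochondrial genome over 100 bases or more. The telomere unit TTAGGG occurred at least 4 times in a row in 10 of the 20. None of these features was found in 3 of the 20. The chromosome 12 region shown above had scores of 1660 and 1808 in WT and 1650 and 1556 in Dido1∆E16, the same order of genotypes as in the medians. The next were a region of chromosome 6 assigned to Nxph1, with 310 bases at 95.5% identity to the mitochondrial genome, and one of chromosome 5 assigned to 4933402J10Rik, with 383 bases at 97.9% identity. Over all 9287 regions 9 matched the mitochondrial genome.

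The comparison of both genotypes asked which distal regions that were open in both WT libraries were not called in the mutant. Of 2909 such regions, 1782 (61.3%, exact binomial 95% interval 59.5 to 63.0) had no MACS2 peak of any annotation in either Dido1∆E16 library. With only the 13208 best peaks of every library the share fell to 30.02% of 826 regions (interval 26.9 to 33.3). Over regions of all annotations with a peak in both WT libraries the share was 43.1%. It was 58.7% for nearer intergenic regions, 64.1% for introns, 52.9% for exons and 13.8% for promoters, so that distal regions stood with introns and nearer intergenic regions. Of the 2909 regions, 415 (14.3%) had a peak in both Dido1∆E16 libraries, against 69.2% of promoter regions. When a HOMER peak in Dido1∆E16 also counted, 44.7% remained without a peak. The intervals cover counting error only.

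In the other direction, 572 distal regions had a peak in both Dido1∆E16 libraries, and 43 of them (7.52%, interval 5.49 to 9.99) had no WT peak, against 1.01% over all annotations. Of these 43 regions, 38 lay on chromosomes 1, 10, 11 and 12, none had a HOMER peak in any library, 93.0% were mostly repeat and 95.3% had a near-copy. On the other 17 chromosomes the count was 5 of 349 (1.43%, interval 0.467 to 3.31), against 1.25% of nearer intergenic regions and 0.343% over all annotations on the same chromosomes. The share of WT regions without a Dido1∆E16 peak was 61.2% on the other 17 and 61.4% on chromosomes 1, 10, 11 and 12.

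Weak regions were without a Dido1∆E16 peak more often than strong ones. The 1782 regions without one had a median lower WT score of 28 and a median width of 503 bp. The 1127 regions with one had a median score of 44 and a median width of 718 bp. In 5 classes of the lower WT score, from 10 to 21 up to 51 and above, 81.4%, 76.7%, 70.1%, 55.6% and 22.7% of the distal regions had no Dido1∆E16 peak. In the nearer intergenic regions the shares were 76.7%, 73.5%, 65.2%, 50.7% and 23.8%. The distal share was higher by 3.20 to 4.92 points in the first 4 classes and differed by -1.06 points in the fifth. The whole gap of 2.58 points stood at 0.0672 points without Dido1∆E16 replicate 1 and at 0.469 points without WT replicate 1. Promoter regions of the same score classes were without a Dido1∆E16 peak far less often, at 47.3% in the lowest class and 1.53% in the highest. The highest class runs from 51 to 1660, and scores within it were not matched between promoter and distal regions.

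**Figure D4:**
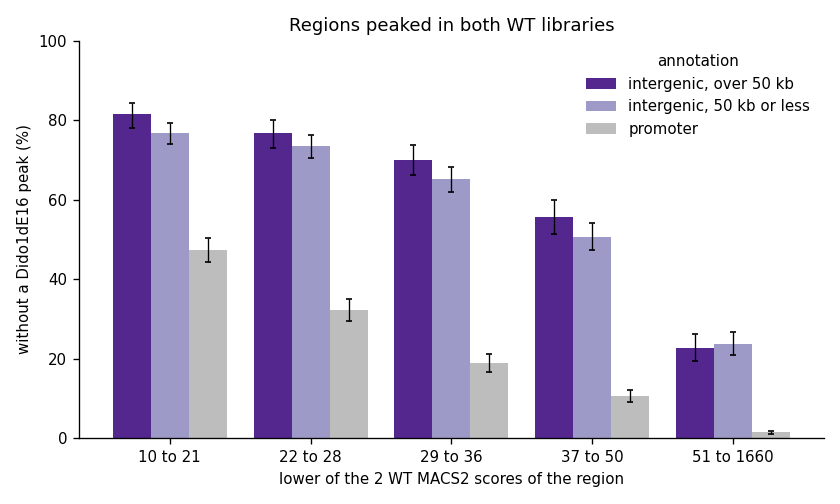
Percent of regions with a peak in both WT libraries that have no peak in either Dido1∆E16 library, by 5 classes of the lower WT score, for distal, nearer intergenic and promoter regions, with exact binomial 95% intervals. The distal bars fall from 81.4% to 22.7% and the promoter bars from 47.3% to 1.53%.

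Distance from the TSS changed the share little. It was 59.1% at 50 to 100 kb, 62.7% at 100 to 200 kb, 63.9% at 200 to 500 kb and 61.2% beyond 500 kb, and the intervals of the 4 bands overlapped. What changed with distance was the makeup of the regions. The share on chromosomes 1, 10, 11 and 12 rose from 27.02% at 50 to 100 kb to 49.5% beyond 500 kb, and the share with a HOMER peak fell from 82.7% to 48.8%. Beyond 500 kb lay 5.76% and 7.18% of the regions of the WT libraries and 11.2% and 10.9% of those of the Dido1∆E16 libraries.

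Intergenic here follows the annotation used in the study. In GENCODE M21, 14.6% of the distal regions lay in an annotated gene of some type and 3.41% in a protein-coding gene. A GENCODE TSS lay within 50 kb of 65.6% of them and within 1 kb of 5.21%. For the 414 regions of all 4 libraries the last value was 13.5%.

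The base composition of distal regions lay between that of their surroundings and that of promoters. Over the central 200 bp the mean GC content was 47.6% ± 7.09 (SD over 9287 regions), against 41.9% in windows 2 kb to either side, 50.1% in nearer intergenic regions and 64.3% in promoters. The mean number of CpG was 2.95 per window, against 1.63 to either side, 3.85 in nearer intergenic regions and 16.5 in promoters. Regions of WT with a Dido1∆E16 peak had 49.9% GC and 4.10 CpG, and those without one 47.0% and 2.95.

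Of 12 motifs searched on both strands of the central 200 bp, 11 were more frequent than 2 kb to either side. The PU.1/ETS motif GAGGAAGT was in 6.58% of the distal regions and in 1.70% of the side windows, a ratio of 3.88. It was in 5.55% of all other peaks, 6.41% of nearer intergenic regions and 2.36% of promoters. The core of the CTCF motif (AGGGGGC) was in 4.08% against 1.44%, a ratio of 2.84. It was more frequent in the other classes of peaks, with 7.20% of all other peaks, 6.61% of nearer intergenic regions and 9.82% of promoters. CTCF is the factor that binds at insulators and loop anchors. The RUNX motif TGTGGTT was in 9.50% against 4.96% and the E-box CAGCTG in 13.4% against 7.22%. The 2 had ratios of 1.92 and 1.85. RUNX was in 8.11% of all other peaks and 10.01% of nearer intergenic regions, and CAGCTG in 14.4% and 14.8%, so that the distal share lay between these for RUNX and below both for CAGCTG.

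The other E-boxes CACGTG and CAGGTG, the GATA motif AGATAAG, the MEIS motif TGACAG, the AP-1 motif TGANTCA, the C/EBP motif TTGCNNAA and the IRF motif GAAANNGAA had ratios from 1.03 to 1.30. The sequence AACTTT, which the study lists as motif M17, was less frequent in distal regions than to either side, at 11.6% against 15.7%. It was in 8.64% of all other peaks, 9.99% of nearer intergenic regions and 5.49% of promoters, so that among peaks the distal share was the higher one. These sequences are short, and a match is not a bound site.

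Regions without a HOMER peak held several of these motifs less often. The PU.1/ETS motif was in 8.18% of the regions with a HOMER peak and in 1.73% of those without one, and the RUNX motif in 11.3% and 3.94%. In the 727 regions with a peak in a Dido1∆E16 library and none in WT these motifs were in 0.413% and 1.24%, and AP-1 was in 0.825%, while the E-box CAGGTG was in 22.3%. Among regions of both WT libraries, PU.1/ETS was in 7.54% of those with a Dido1∆E16 peak and 8.59% of those without, RUNX in 12.1% and 13.7%, and CAGGTG in 14.6% and 11.95%.

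**Figure D5:**
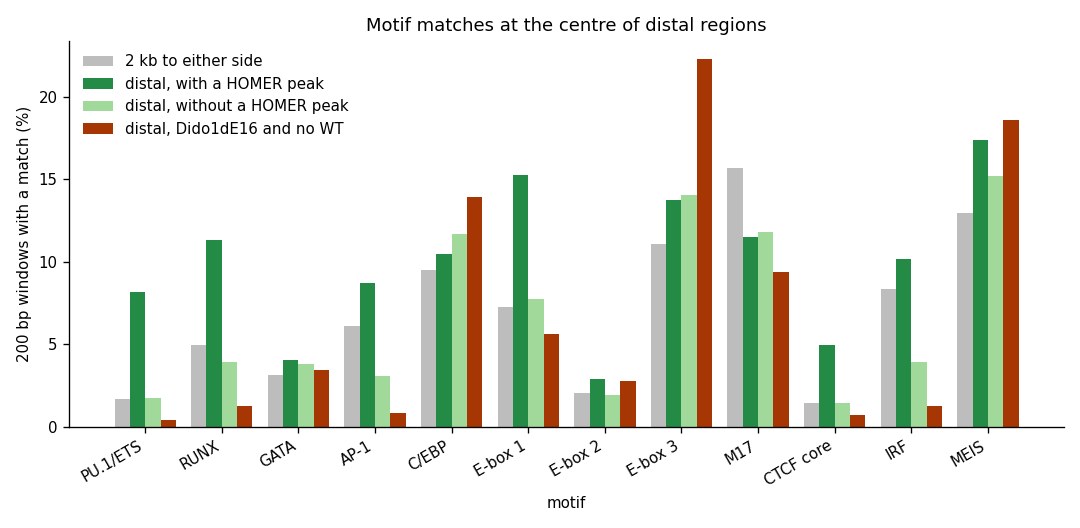
Percent of 200 bp windows that hold each of 12 short motifs on either strand, for windows 2 kb to either side of distal regions (grey), distal regions with and without a HOMER peak (dark and light green) and distal regions of Dido1∆E16 without a WT peak (brown). E-box 1 is CAGCTG, E-box 2 is the E-box CACGTG and E-box 3 stands for CAGGTG. The PU.1/ETS bars are 1.70%, 8.18%, 1.73% and 0.413%.

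The distal regions were assigned by nearest TSS to 2939 genes, of which 124 had 10 or more. Adgrl2, an adhesion G protein-coupled receptor, had the most with 30 regions, of which 27 had a HOMER peak. WT replicates held 14 and 29 of them and Dido1∆E16 replicates 4 and 7. Cdh26, a cadherin, had 25 regions, all with a HOMER peak, and WT held 10 and 25 against 4 and 5. Both WT libraries held 14 of the Adgrl2 and 10 of the Cdh26 regions, and 6 and 4 of these had no Dido1∆E16 peak.

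The other genes with the most regions differed in kind. The 7 that lie on chromosome 1, Gm20268, B3galt2, Pla2g4a, Brinp3, Cntnap5a, Mir6350 and Dsel, had 22 to 27 regions each. HOMER called 12 of 24 regions of B3galt2, 11 of 24 of Pla2g4a and 7 of 22 of Dsel, 1 each of Gm20268, Brinp3 and Mir6350, and 0 of 23 of Cntnap5a. In Cntnap5a the Dido1∆E16 libraries held 6 and 17 regions and the WT libraries 0 and 14. Olfr161 on chromosome 16, an olfactory receptor, had 28 regions, 10 with a HOMER peak. The Dido1∆E16 libraries held 9 and 19 of the 28 and the WT libraries 7 and 21.

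Of 24 stem cell genes, 8 had a distal region, 38 regions in all, and the WT libraries held 16 and 30 and the Dido1∆E16 libraries 6 and 14. Of 14 that were in both WT libraries, 8 (57.1%) had no Dido1∆E16 peak, near the 61.3% over all distal regions. Cdk6, a cell cycle kinase of stem cell exit from quiescence, had 8 regions. The regions 191 and 145 kb upstream of it scored 122 and 98 in WT replicate 1, 215 and 177 in WT replicate 2, 38 and 39 in Dido1∆E16 replicate 1 and 58 and 64 in Dido1∆E16 replicate 2. Both WT values lay above both Dido1∆E16 values at each. The median scores over the 414 regions of all 4 libraries had the same order, at 61 and 147 in WT and 41.5 and 48.5 in Dido1∆E16. The order is therefore not shown to be particular to Cdk6. Of the 5 Cdk6 regions in both WT libraries, 1 had no Dido1∆E16 peak.

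Mycn, a MYC family factor, had 7 regions, 3 of them in both WT libraries with lower WT scores of 14 to 18, and all 3 were without a Dido1∆E16 peak. Runx1, which is required for the emergence of blood stem cells, had 4. Its regions 57.7 and 203 kb upstream scored 29 and 22 in WT replicate 1 and 79 and 137 in WT replicate 2 and had no Dido1∆E16 peak. A Runx1 region 194 kb upstream scored 63 in WT replicate 2 and 22 in Dido1∆E16 replicate 1. Kit, the receptor for stem cell factor, had 5 regions, and the one 81.4 kb downstream scored 45 and 106 in WT and 24 and 20 in Dido1∆E16. Cd34 had a region 58.6 kb upstream in all 4 libraries, with 60 and 165 in WT and 52 and 42 in Dido1∆E16. Meis1, a homeobox cofactor of stem cells on chromosome 11, had 9 regions, of which the WT libraries held 0 and 5 and the Dido1∆E16 libraries 1 and 5, so that the genotypes overlapped. None was in both WT libraries, and 4 of the 9 had a HOMER peak.

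Of 22 lymphoid genes, 7 had a distal region, with 36 regions of which 35 had a HOMER peak. The WT libraries held 24 and 36 and the Dido1∆E16 libraries 10 and 9. Of 24 in both WT libraries, 12 had no Dido1∆E16 peak, against 1782 of 2909 over all distal regions. Mef2c, a factor of lymphoid specification, had 6 regions 159 to 392 kb upstream, all in both WT libraries, and 4 were without a Dido1∆E16 peak. The 2 others scored 22 and 37 in WT and 13 in Dido1∆E16 replicate 1, and 54 and 104 in WT and 18 in Dido1∆E16 replicate 2. Lef1 had 4 regions in both WT libraries, 3 of them without a Dido1∆E16 peak, and the fourth scored 40 and 104 in WT and 57 and 15 in Dido1∆E16, so that the genotypes overlapped there.

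Bcl11a, a zinc finger repressor needed for B cells, had 9 regions, of which 2 of 6 in both WT libraries had no Dido1∆E16 peak. Its region 119 kb downstream scored 60 and 141 in WT and 14 and 18 in Dido1∆E16. Gata3, the T cell regulator, had 6 regions and 2 of 3 without a Dido1∆E16 peak. Foxo1, which acts in early B cells, had 6 regions, and Dido1∆E16 replicate 1 held 4 and replicate 2 held 1. The Foxo1 region 190 kb downstream scored 38 and 110 in WT and 36 and 39 in Dido1∆E16, again with overlap. Ikzf2, an Ikaros family factor, had 3 regions, and its single region in both WT libraries had a Dido1∆E16 peak.

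Irf8 was the only one of 12 myeloid and erythroid genes with a distal region. It had 5, all in WT replicate 2, none in WT replicate 1 and 1 in Dido1∆E16 replicate 1. Of 14 regulators of other tissues, 5 had distal regions, 15 in all. Foxa2, an endoderm factor, had 7, all with a HOMER peak and in WT replicate 2, and 1 was in WT replicate 1 and 0 in Dido1∆E16. Of 20 genes that the paper names for ATAC-seq, 10 had distal regions, 41 in all.

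Distal regions were also grouped in space. Joined at the gap width commonly used to stitch enhancers, 2067 regions (22.3%) formed 560 clusters of 3 or more, and 237 of the clusters (42.3%) had no distal Dido1∆E16 peak. Of the regions of both WT libraries, 55.0% of the 669 in clusters and 63.4% of the 1488 that stood alone were without a Dido1∆E16 peak. The largest cluster spanned 99.2 kb of chromosome 7 (63991435 to 64090676) with 19 regions assigned to Klf13 or Trpm1. WT libraries held 6 and 17 of them and Dido1∆E16 libraries 5 and 9, and none of the 6 in both WT libraries was without a Dido1∆E16 peak. A cluster of 12 regions on chromosome 8 (120285093 to 120344791), assigned to A330074K22Rik, had 4 and 12 regions in WT and 1 and 1 in Dido1∆E16, and 3 of its 4 regions in both WT libraries had no Dido1∆E16 peak. The next 3 tied at 11 regions. The one near Sp110 on chromosome 1 had 0 and 8 in WT and 0 and 5 in Dido1∆E16, that near Olfr161 on chromosome 16 had 4 and 8 against 3 and 10, and that near Pisd-ps2 on chromosome 17 had 5 and 10 against 6 and 8. HOMER called 8 of the regions near Olfr161 and none near the other two.

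The strongest regions of WT without a MACS2 or HOMER peak in Dido1∆E16 were of moderate score. The first, on chromosome 8 (89641156 to 89641750) and 597 kb upstream of Sall1, scored 86 and 170 in WT. The others were assigned to 1700009N14Rik (77 and 142), Marcks (73 and 110), Slc30a8 (79 and 68) and Sept5 (66 and 123). All 5 were called by HOMER in both WT libraries, and between 9.64% and 27.9% of their bases were repeat-masked. The 5 strongest of Dido1∆E16 without a WT peak, assigned to Oxgr1, Adam29, Rp1, 4930448K20Rik and 1700113H08Rik, scored 32 to 61 in Dido1∆E16 replicate 1 and 35 to 64 in replicate 2. HOMER called none of them, and those of Oxgr1, Rp1 and 1700113H08Rik were repeat-masked over 100% of their length.

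Tag counts were deposited for regions that the authors had called differential on these libraries, so the values describe that choice and are not independent of it. With Dido1∆E16 as the target, 559 regions of the list overlapped distal regions, and in 557 both Dido1∆E16 libraries lay below both WT libraries and in 2 above. Their median log2 tag count was 6.20 and 6.14 in WT and 5.24 and 5.21 in Dido1∆E16, a median difference of -0.93. With WT as the target, the list held 1140 such regions, and 1139 were lower in Dido1∆E16, with a median difference of -0.94. The same counts over all 5231 and 8540 regions of the 2 lists are not given here. The order of the genotypes is therefore not shown to be particular to distal regions. Of the 577 distal regions reached by the first list, 414 had a peak in both WT libraries and at least 1 in Dido1∆E16, so that a lower tag count and a called peak occurred together in them.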

How the data were processed

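Omni-ATAC-seq peaks of 2 WT and 2 Dido1∆E16 LSK libraries were analysed, and pre-B RNA-seq was not used. The labels give 2 libraries per genotype, while the methods mention 3. Reads were aligned by the authors to mm10 with Bowtie2 or BWA-MEM (BWA 0.7.15 in the submitters' processing notes), duplicates were removed, and peaks were called per library with MACS2 and HOMER and annotated with ChIPseeker. The deposited MACS2 files hold a whole-number score and the width of each peak, and the deposited HOMER score is constant. The deposited differential lists, made by the authors with HOMER, hold log2 tag counts scaled to equal library size, probably shrunk, and their fold changes and p-values were not used.

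Only peaks of the 21 assembled chromosomes entered, and they were merged from 1 bp of overlap, in Python 3.11.15 with pandas 2.3.3, numpy 2.4.6 and scipy 1.17.1. A HOMER peak supported a region where they shared 1 bp. Sequence and repeat masking came from GRCm38.p6, and copies were found with blastn 2.17.0+. Genotypes were set against each other by exact permutation of the libraries, two-sided. The functions were tested on 1500 simulated intervals, and 7 of 7 tests passed. The members, motifs, gene lists and named regions were chosen with earlier results of these data known. The genes named were the 10 with the most distal regions, up to 6 per gene list by number of regions, and those named in the paper. The regions named were the 5 with the highest lowest score over the 4 libraries, over WT without a Dido1∆E16 peak by either caller, or over Dido1∆E16 without a WT peak by either caller. The comparison of chromosomes 1, 10, 11 and 12, the repeat and copy measures, the printed motif pairs and the region printed for Lef1 were chosen after seeing the data. Depth was the total of tags in the header of the differential lists. The replicate numbers were not treated as pairs. A gene and a sequence that these rules chose are not reported here.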

Additional observations from a re-analysis of the deposited data

How the results depend on the processing

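The genotype means of distal share, share of merged regions held and median width were lower in Dido1∆E16 under all alternatives. At equal numbers of best peaks, however, Dido1∆E16 replicate 2 was the highest of the 4 libraries in the first 2 measures. No exact p reached 0.05, since 0.333 is the smallest that 2 libraries against 2 allow. The difference in distal share ranged from -6.00 to -0.610 points over 15 alternatives, and was -0.779 without Dido1∆E16 replicate 1, -5.57 without Dido1∆E16 replicate 2 and -1.67 without WT replicate 2. The share held differed by -75.5 points without WT replicate 1, and the median width by -59.5 bp without WT replicate 1 and -15.5 bp without WT replicate 2. With equally many best peaks per library the 3 differences were -0.610 points, -2.90 points and -163.8 bp. Between genotypes the replicate 1 deviations of log2 score correlated at -0.0568 over 414 regions. Regions are not replicates, so this value cannot show whether libraries of the same number shared a preparation. The replicate block left the differences at -3.18 points, -45.9 points and -37.5 bp (exact sign-flip test, p = 0.5, the smallest possible).

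The share of WT distal regions without a Dido1∆E16 peak was 61.3%. It was 43.8% with HOMER peaks, 30.02% when every library gave equally many of its best peaks, 63.0% over 100 kb from a TSS, and 59.0% with MACS2 peaks that HOMER also called. Leaving out a library gave 63.1% to 80.8%. The gap to nearer intergenic regions, 2.58 points, was -0.901 in the better-scoring 50% of each list, and 0.0672 to 4.71 points without a library. Leaving out chromosomes 1, 10, 11 and 12 or mostly repeat peaks, both chosen after seeing the data, gave shares of 61.2% and 62.7% and gaps of 2.63 and 3.63 points. The ratio of PU.1/ETS matches to windows 2 kb away was 3.88 over 200 bp and 2.91 over whole regions. The 560 clusters became 183 when joined within 5 kb. The cause of these changes was not tested.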

Other observations

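Distal regions with a HOMER peak had similar motif shares on both groups of chromosomes. The PU.1/ETS motif was in 8.23% of the 1616 on chromosomes 1, 10, 11 and 12 and in 8.17% of the 5363 on the other 17, the RUNX motif in 12.2% and 11.1%, and the mean repeat-masked share of the central 200 bp was 12.6% on both. Among regions without a HOMER peak the RUNX motif was in 1.70% of the 1408 on those 4 chromosomes and in 7.44% of the 900 on the others.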
